A study of Mus musculus with 2 samples.

Results

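Processed pseudogenes are annotated copies of gene transcripts, and in the footprint table of neonatal mouse brain they were the 5924 transcript rows with the biotype processed_pseudogene. They made up 5.41% of the 109463 rows. The rule for members used that annotation alone and no count, but it was set with earlier results of these data known. Among them, 407 had a symbol ending in -ps plus digits, and the symbol before -ps was taken as the name of the parent gene. A further 5400 were unnamed gene models: 4755 with a Gm number, 628 with a clone name and 17 with a RIKEN name. The other 117 had a symbol of another form, of which 76 ended in -ps without digits and 10 in -rs.

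A processed pseudogene arises when a messenger RNA is reverse transcribed and inserted elsewhere in the genome, usually by the enzymes of LINE elements. The copy lacks introns, often carries remnants of a poly(A) tail, and has no promoter of its own unless it lands near one. Genes that are highly expressed in the germ line, such as those for ribosomal proteins, cyclophilin A, actin and tubulin, have many such copies, and a recent copy can be close to identical to the coding sequence of its parent. A ribosome footprint is short, so a fragment from the parent can match the copy as well.

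The samples were brains of control mice at postnatal day 5 with the genotype Smn+/-; SMN2tg/0, on a congenic FVB background. These are heterozygous animals of the Taiwanese line, a model of spinal muscular atrophy, so both samples carry 1 disrupted copy of Smn and the human SMN2 transgene. Frozen brain was lysed, the lysate was digested with nuclease for 45 min, and ribosomes were captured on RiboLace beads, which carry a puromycin analogue that binds translating ribosomes; protected fragments of 25 to 35 nucleotides were then sequenced. There were 2 biological replicates of 1 group, with 729027 and 225075 counts in the table, and no other condition. The neuronal and glial markers examined were all present (Tubb3 had 1061 and 405 counts, Apoe 380 and 110), and of the markers of other tissues Alb, Afp and Ckm were at 0 in both, while the haemoglobin gene Hba-a1 had 343 and 121 counts, the skeletal muscle actin gene Acta1 70 and 22, Myh6 3 and 0 and Cd3e 1 and 0.

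How a fragment that matches several rows was counted is not given in the sources used here, and the table does not settle it. Over 111 pairs of coding isoforms of 1 gene with the same coding length and a length within 20 nucleotides, the count difference divided by the square root of the count sum had a variance of 0.436 in replicate 1 and 0.441 in replicate 2. That variance would be 0 if every shared fragment were counted on both isoforms, and about 1 if each fragment were assigned to 1 of them at random. A count on a pseudogene therefore may include fragments of its parent, in a proportion that these data do not give. Throughout, a count says that fragments were assigned to the row, not that the pseudogene was translated.

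Sequence was at hand for 36 of the members, as RefSeq windows around the annotated gene start (GRCm38.p6). In 2 of these the parent had a window too: Tma7-ps, a copy of the gene for translation machinery associated 7, and Rpl31-ps12, a copy of the gene for a protein of the large ribosomal subunit. They are shown because they place the similarity between a member and its parent on the scale of a footprint. RefSeq classes both members as protein coding, as it does 39 of the 5924 members, so they need not be typical. Capitals mark the longest run of identical bases in the 50 bases after both starts.
Tma7-ps: tgAGGGGCTGGAGGCGCCATGTCGGGCCG
Tma7: gaAGGGGCTGGAGGCGCCATGTCGGGCCG
Rpl31-ps12: caacatggcgactttcctTCCCACAAACCC
Rpl31: cggctacgcgactttcccTCCCACAAACCC
The Tma7-ps stretch lies at chr1:171711070-171711098 on the plus strand and covers bases 1 to 29 after its start, whereas the Tma7 stretch lies at chr9:109082332-109082360 on the minus strand and covers bases 22 to 50. The shared run of 27 bases is as long as a fragment within the selected size range, and it contains the triplet ATG. Counting from 1 at the 5′ end of the printed stretch, with the base of the parent first, the member differed by G1T and A2G. The Rpl31-ps12 stretch, at chr16:16820158-16820187 on the minus strand, covers bases 10 to 39 after the start, and the Rpl31 stretch, at chr1:39367871-39367900 on the plus strand, bases 21 to 50. Here 24 of 30 bases matched, the longest shared run within the windows was 12 bases, and the substitutions were G2A, G3A, T5A, A6T, C7G and C18T. Both runs end at base 50 of the parent, where its window ends, so they may be longer. Searched on both strands, the run of 27 bases was present in 3 of 32851 windows of the RefSeq table and the run of 12 bases in 6. In the 250 bases before the starts the longest shared run was 8 bases for the Tma7 pair and 7 for the Rpl31 pair. In both pairs the longest shared run lay after the start.

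The counts of both pairs were low. Tma7-ps, a row of 195 nucleotides, had 10 counts in replicate 1 and 4 in replicate 2, beside 20 and 6 for Tma7, whose coding sequence has the same length of 195 nucleotides. Rpl31-ps12, of 375 nucleotides, had 16 and 6 counts beside 18 and 10 for Rpl31. In both libraries the member lay below its parent in both pairs.

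Footprint counts on processed pseudogenes were common. The members held 42565 of the counts in replicate 1 and 11908 in replicate 2, which is 5.84% (95% Wilson interval 5.79 to 5.89) and 5.29% (5.20 to 5.38) of the table, or 5.56% ± 0.387 (SD, n = 2). Their share of the counts was thus close to their share of the rows. Intervals cover counting error only, because PCR copies were not marked by molecular identifiers and rows can share fragments. With 1 row per gene, the row with the highest count, the share was 12.4% and 9.90%, because coding genes have many isoform rows and a pseudogene has 1. Only 1 member gene, Mab21l2, had another row: its processed_pseudogene row had 11 and 6 counts and its protein-coding row 10 and 4.

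A count was found on 52.8% of the members in replicate 1 and on 37.6% in replicate 2. Both libraries had a count on 2064 members (34.8%), and 2633 (44.4%) were at 0 in both. The corresponding share over all rows, 34.6% with a count in both, was nearly the same. With 729027 and 225075 counts in all, a count of 0 allows up to 3 counts, or 0.000412% and 0.00133% of the table, so a member at 0 was below that limit and not shown to be absent. The median length of a member was 545 nucleotides.

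Annotation classes of pseudogene differed widely in density, the summed counts per kilobase of summed row length. Processed pseudogenes had 10.5 and 2.93 counts per kilobase in replicates 1 and 2. Unprocessed pseudogenes, which arise by duplication of a gene with its introns, had 0.967 and 0.348, and 93.2% of their 2145 rows were at 0 in both libraries. Processed pseudogenes annotated as transcribed, a class of 169 rows, had 16.2 and 4.16. Protein-coding rows had 4.29 and 1.26 over their whole length, untranslated regions included, which was below the density of processed pseudogenes in both libraries. That value sums the length of all 49617 coding rows, of which 31.6% were at 0 in both libraries. Coding genes have many isoform rows and a pseudogene has 1, so these densities do not compare pseudogenes with coding genes. The 12 rows annotated as translated processed pseudogenes all had a count in both libraries.

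**Figure D1:**
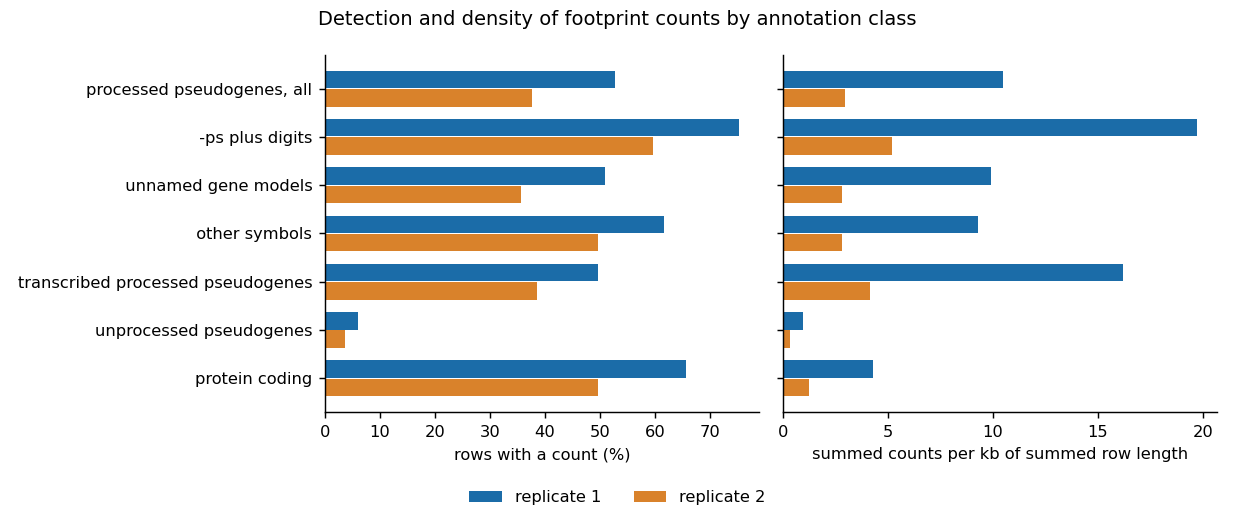
Share of rows with a count (left, in percent) and summed counts per kilobase of summed row length (right) for processed pseudogenes, for their 3 kinds of symbol and for transcribed processed pseudogenes, unprocessed pseudogenes and protein-coding rows; each bar is 1 library. Among the 7 sets drawn, members with a -ps symbol plus digits had the longest bars for detection, and unprocessed pseudogenes the shortest in both plots.

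Unnamed gene models carried most of the members' counts. They held 36699 counts in replicate 1 and 10332 in replicate 2, which is 86.2% (95% Wilson interval 85.9 to 86.5) and 86.8% (86.1 to 87.4) of the members' counts, or 86.5% ± 0.386 (SD, n = 2). As they were 91.2% of the members, their share of the counts was below their share of the rows in both libraries. The Gm symbols alone held 79.6% and 79.2%, the clone names 6.37% and 7.36%, and the RIKEN names 0.277% and 0.176%.

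Members with -ps plus digits were 6.87% of the rows and held 11.6% and 10.9% of the counts. Their density was 19.7 and 5.18 counts per kilobase, against 9.89 and 2.78 for the unnamed models. Counts in both libraries were found for 57.7% of the -ps members and for 32.9% of the unnamed models. The other 117 symbols held 2.18% and 2.35% of the counts.

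The counts were concentrated in few members. The 10 highest held 13.4% of the members' counts in replicate 1 and 15.7% in replicate 2, and 50% of the counts lay in 239 and 196 members. To reach 90% took 1403 and 1230 members. At least 100 counts were seen on 45 members in replicate 1 and on 8 in replicate 2, so most values below rest on small counts.

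The unnamed model with the highest count was Gm14150 (ENSMUSG00000082809, 1354 nucleotides), with 1251 counts in replicate 1 and 448 in replicate 2. That is 3695 ± 432 CPM (SD, n = 2), that is, counts scaled to a common library size, with library sizes over genes adjusted by edgeR's TMM method. Gm5620 (1348 nucleotides) followed with 1079 and 373 counts, Gm12715 (1128 nucleotides) with 669 and 187, and Gm1821 (690 nucleotides) with 578 and 180. These 4 models kept the same order in both libraries. Gm15459 had 515 and 151 counts, Gm15599 had 425 and 138, and Gm11223 had 299 and 109. Among the remaining 3 of the 10 highest, Gm13456 had 319 and 83, Gm4202 had 293 and 87, and Gm6180 had 262 and 98. Per kilobase, Gm14150 had 924 and 331 counts and Gm1821 838 and 261, whereas Gm13456, with a length of 1365 nucleotides, had 234 and 60.8. The symbols of these models name no parent, and no sequence of theirs was used here, so they were not placed in families.

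For some unnamed models RefSeq gives a former symbol that holds a parent name. This was the case for 59 members without -ps plus digits, and 28 of them were named after Ppia, the gene for cyclophilin A, a peptidyl-prolyl isomerase that binds cyclosporin. A count was found on 22 of the 28 Ppia copies. Together they held 727 counts in replicate 1 and 202 in replicate 2, against 246 and 68 for the Ppia row with the highest count and 1000 and 276 for its 5 rows summed. The copies thus summed to more than the highest row and to less than all rows. Gm13493, of 493 nucleotides, was the highest with 153 and 45 counts, followed by Gm5558 with 78 and 18 and Gm6065 with 71 and 19. The median copy had 13 and 4.5 counts, and the copies were 251 to 631 nucleotides long beside a coding sequence of 495 nucleotides. No single copy reached the highest row of Ppia.

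Other members named after a parent in this way had one copy each or few. Vcp-rs, a copy of the gene for the AAA ATPase that extracts proteins for degradation, had 158 and 55 counts beside 195 and 64 for Vcp, over a length of 2406 nucleotides beside a coding sequence of 2421. The 3 copies of Mif, a cytokine gene, had 71 and 18 counts in all, beside 134 and 31 for Mif, and Gm8762 alone had 49 and 13. Gm5389, a copy of Aldoa, the glycolytic aldolase, had 19 and 6 beside 176 and 49. In each of these the copies lay below the parent.

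The 407 members with -ps plus digits bore 162 parent names. For 345 of them the parent was a gene of the table, which gave 124 families, and 63 of these families had 1 member. The largest family, Rpl31, had 22. A parent was represented by its row with the highest count. The 345 members together held 4393 counts in replicate 1 and 1142 in replicate 2, against 5399 and 1570 for their 124 parents, or 0.814 and 0.727 times as many. In 31 families the members summed to more than the parent in both libraries, and 29 of those were among the 61 families with at least 2 members. Against the sum of all isoform rows of the parent this held in 9 of the 124 families, and the parents then had 16085 and 4476 counts. A parent with 1 row has the same value in both comparisons.

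Parents with the symbol of a cytosolic ribosomal protein (Rpl or Rps plus a digit, Rpsa or Rplp) made up most of the named set. There were 50 such families with 230 members (66.7% of the members with a parent), of which 204 had a count. The symbols include Rpl7l1, which is not a known protein of the cytosolic ribosome, and leave out Fau, which encodes one; their 3 copies were at 0 in both libraries. The ribosomal members held 2943 and 760 counts, 67.0% and 66.5% of the counts of the 345 members, and 1.39 and 1.22 times the 2116 and 624 counts of their parents. The isoform rows of these parents summed to 6487 and 1851, more than the members. Genes of chromatin proteins followed with 5 families and 14 members, all with a count, which had 267 and 53 counts beside 319 and 79 for the parents. Chaperones and cyclophilins had 4 families and 9 members with 87 and 27 counts, and glycolysis had 3 families and 4 members with 232 and 69. Oxidative phosphorylation had 2 families, cytoskeleton 1, translation factors 1, and ubiquitin and proteasome 2. In the ribosomal and cytoskeletal classes the members' sum was above that of the parents' highest rows in both libraries, and in the other classes below it; against summed isoform rows, 244 and 70 for Tubb4b, it was below in these classes too. Families outside these classes numbered 56, with 79 members, of which 51 had a count.

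**Figure D2:**
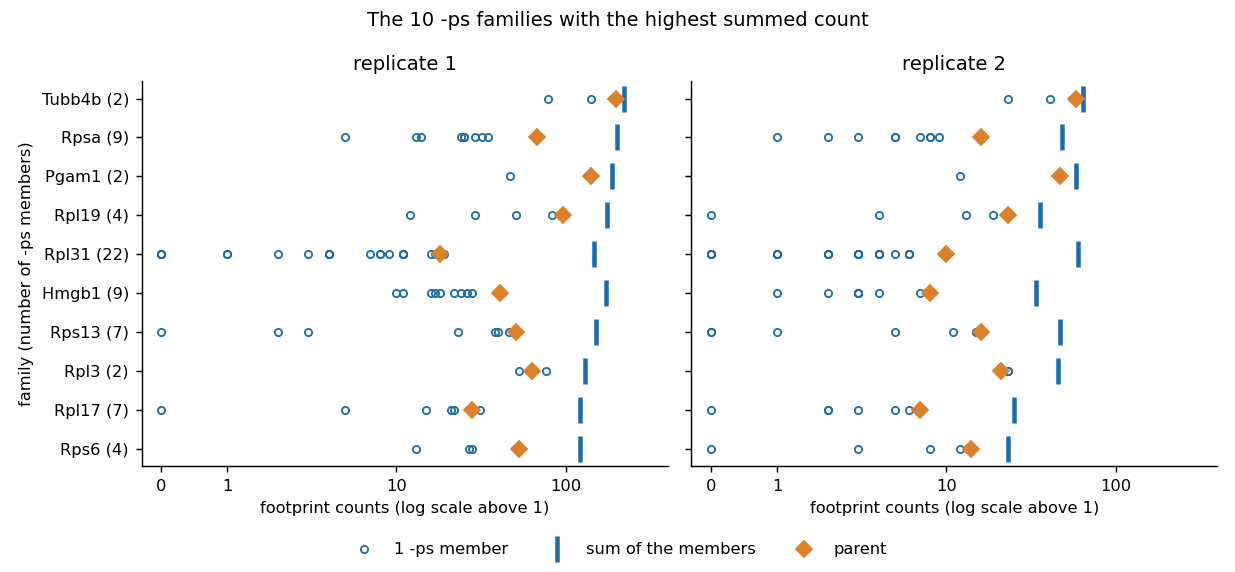
The 10 -ps families with the highest summed count, 1 panel per library, with footprint counts on the x axis (log scale above 1): each open circle is 1 member, the bar the sum of the members and the diamond the parent row with the highest count. In all 10 families the bar lies to the right of the diamond in both panels. The families were chosen by the sum that the bar shows, which favours this.

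The 10 families with the highest summed count, with 68 members, held 1628 of the 4936 counts on -ps plus digits in replicate 1 and 441 of 1296 in replicate 2. In all 10 the members summed to more than the highest row of their parent in both libraries. The 10 were chosen by that sum, which favours this outcome, and over all 124 families it held in 31. In 5 of the 10 (Rpsa, Pgam1, Rpl31, Rps13 and Rpl17) the members also exceeded the parent's isoform rows summed. Of these parents only Rpl31, with 6 rows, had more than 1 row. For Rpsa, Pgam1, Rps13 and Rpl17 the isoform sum is the highest row itself, so the comparison is the same one. Over the 10, the members' sum ran from 1.1 times the highest row in each library for Tubb4b to 8.17 and 6 times for Rpl31. Tubb4b encodes a beta-tubulin. Tubb4b-ps1 had 141 and 41 counts and Tubb4b-ps2 had 79 and 23, against 199 and 58 for Tubb4b, so each copy was lower than that row and their sum slightly higher. Both copies, of 1336 and 1337 nucleotides, were nearly as long as the coding sequence of 1338.

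Pgam1 encodes the glycolytic phosphoglycerate mutase. Pgam1-ps2 had 140 and 46 counts, almost those of Pgam1 itself, with 142 and 47, and it was as long as the coding sequence of the parent, at 765 nucleotides. Pgam1-ps1, of 749 nucleotides, had 47 and 12. The 2 copies of 1 parent thus differed by more than 2 times in both libraries.

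Families of the small ribosomal subunit were led by Rpsa, whose protein is also known as the laminin receptor. Its 9 members had 5 to 35 counts in replicate 1 and 1 to 9 in replicate 2, with 202 and 48 in all, beside 68 and 16 for Rpsa. Of these 9 none was at 0 in both libraries, and none reached the parent. Lamr1-ps1, of 874 nucleotides, bears a former symbol of Rpsa and was at 0 in both. Of the 7 Rps13 members, Rps13-ps2 with 46 and 15 counts, Rps13-ps4 with 40 and 15 and Rps13-ps1 with 38 and 11 lay near the parent, with 51 and 16. The other Rps13 copies went down to 0: Rps13-ps5 had 23 and 5, Rps13-ps6 had 2 and 1, Rps13-ps7 had 3 and 0, and Rps13-ps8 had 0 and 0. The 4 members of Rps6, the subunit protein phosphorylated by S6 kinase, were all 750 nucleotides long, as is the coding sequence of Rps6. Their counts were 53 and 12 for Rps6-ps4, 28 and 8 for Rps6-ps3, 27 and 0 for Rps6-ps1 and 13 and 3 for Rps6-ps2, beside 53 and 14 for Rps6. Copies of 1 length thus ranged from 13 to 53 counts in replicate 1 and from 0 to 12 in replicate 2. The 4 rows of Rps6 itself summed to 162 and 47.

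Among families of the large subunit, Rpl19 had 4 members. Rpl19-ps11 had 83 and 19 counts, Rpl19-ps1 had 51 and 13, Rpl19-ps12 had 29 and 4, and Rpl19-ps4 had 12 and 0, against 97 and 23 for Rpl19. Each copy was below that row in both libraries, and the 3 rows of Rpl19 summed to 199 and 48. Rpl3-ps1 with 77 and 23 counts and Rpl3-ps2 with 53 and 23 stood beside 63 and 21 for the highest row of Rpl3, which is annotated as a retained intron; the first copy was above it in both libraries and the second in replicate 2. The 7 Rpl17 members ranged from 0 to 31 counts in replicate 1 and from 0 to 7 in replicate 2, beside 28 and 7 for Rpl17. Only Rpl17-ps8, with 31 and 5, was above the parent in replicate 1, and none was in replicate 2.

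Rpl31 had the most copies. Its 22 members summed to 147 counts in replicate 1 and 60 in replicate 2, while the highest row of Rpl31 had 18 and 10 and its 6 rows together 91 and 43. The copies ranged from 0 to 19 and from 0 to 6, with medians of 5.5 and 3, and 2 were at 0 in both libraries. Rpl31-ps9, with 19 and 5 counts, was above the parent in replicate 1 and below it in replicate 2. The lengths of the copies ran from 337 to 390 nucleotides, against a coding sequence of 390.

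Hmgb1, which encodes an abundant DNA-binding protein of chromatin, was the family outside the ribosome with the most members among the 10. Its 9 copies had 10 to 28 counts in replicate 1 and 1 to 8 in replicate 2, and 172 and 34 in all, beside 41 and 8 for Hmgb1. The 10 rows of Hmgb1 summed to 242 and 47, more than the copies. None of the copies was above its highest row. Hmgb1-ps7, with 18 and 8 counts, equalled it in replicate 2.

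Ribosomal protein genes were grouped by their number of copies with -ps plus digits, called -ps members here. Over 77 genes, with the highest row taken per kilobase of coding length, the 28 genes with no -ps member had a median of 133 in replicate 1 and 39.4 in replicate 2. The 26 genes with 1 to 3 members had 73.7 and 25.6, and the 23 genes with 4 or more had 69.1 and 18.7. With isoform rows summed the order changed, to medians of 265 and 80.6, 301 and 92.7, and 216 and 61.0. The ranges overlapped: 41.7 to 251 in replicate 1 for genes with no member, and 14.3 to 164 for genes with 4 or more. The coding length was the longest over a gene's rows. It was 1272 nucleotides for Rpl13a, the gene with the value of 41.7. Across these genes the number of -ps members and the density had a Spearman correlation of -0.48 and -0.50, and of -0.20 and -0.27 with isoform rows summed. It is a description across genes that share the libraries and can share fragments, and the groups were set with the table in view. Unnamed copies and those with symbols of another form, such as Rps4x-ps, were not counted in it.

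**Figure D3:**
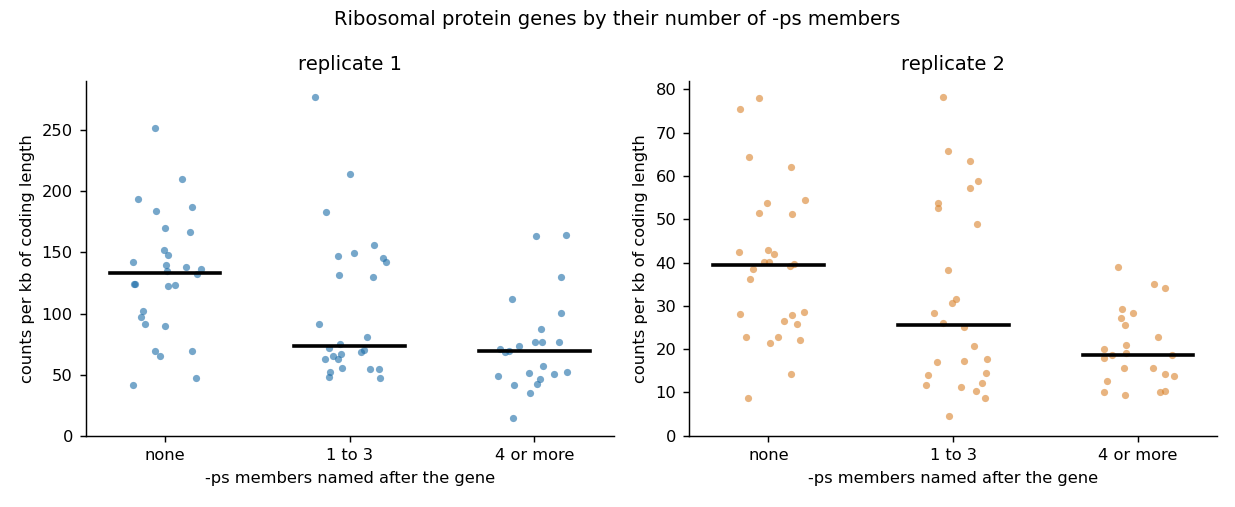
Counts of the highest row per kilobase of coding length for 77 ribosomal protein genes, 1 panel per library. Genes are grouped by the number of members with -ps plus digits named after them. Each point is 1 gene and the black line the median. The medians fall from 133 to 69.1 in replicate 1 and from 39.4 to 18.7 in replicate 2, with wide overlap between the groups.

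The ratio of a single member to its parent was taken as log2 of (count + 1) over (parent count + 1), for the 279 members whose parent had at least 20 counts over both libraries. The median was -1.81 in replicate 1 and -1.74 in replicate 2, 3.5-fold and 3.33-fold below the parent. This value depends on how the parent is measured: it was -3.51 and -3.40 against the summed isoform rows of the parent, and -0.85 and -0.80 per kilobase of transcript. Values spread widely, with quartiles of -3.39 and -0.83 in replicate 1 and of -2.81 and -0.91 in replicate 2. On this scale 62 members were at 0.5 of the parent or more in both libraries, and 41 were at 0.1 of it or less in both. With 1 added to each count, a member at 0 cannot reach 0.1 where its parent has few counts. Rps18-ps2, at 0 in both libraries beside 33 and 4 for Rps18, is therefore not among the 41. No count at all was found on 32. Only 2 members were above the highest row of their parent in both libraries. These were Rpl3-ps1, described above, and Rpl18-ps1, with 50 and 16 counts beside 46 and 8 for Rpl18. The 6 rows of Rpl3 summed to 234 and 78, more than Rpl3-ps1. Mrpl23-ps1, a copy of a gene for a mitochondrial ribosomal protein, had 14 and 6 counts. The highest row of Mrpl23, annotated as a processed transcript, had the same. For 26 of the 279 members the parent row was not protein coding, with medians of -2.05 and -2.68.

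**Figure D4:**
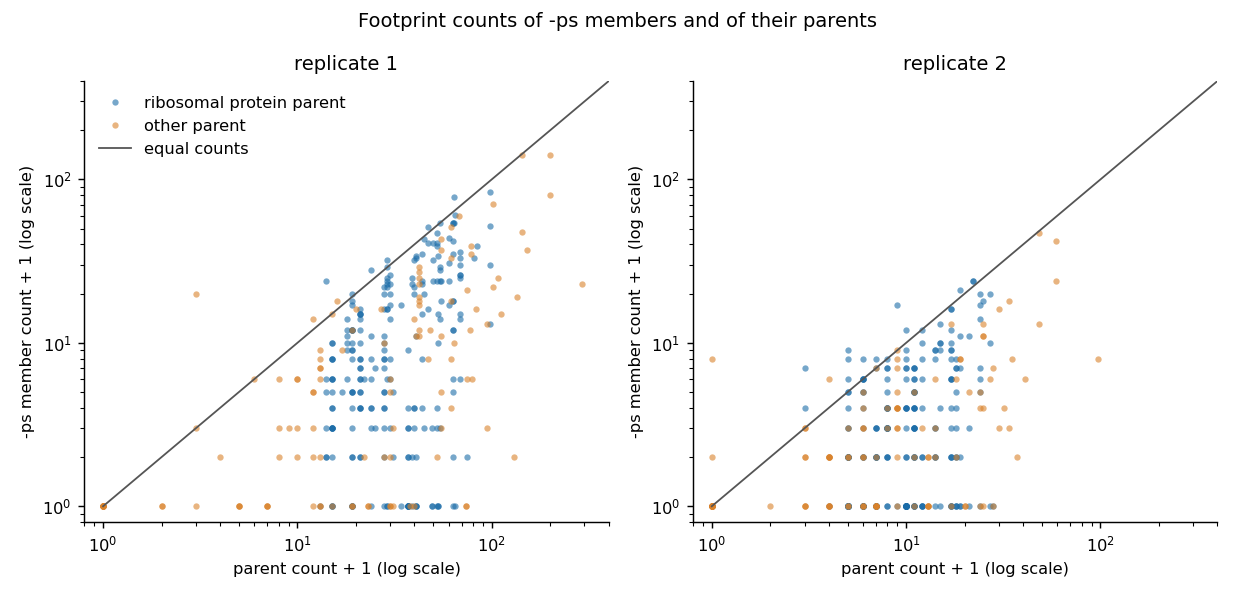
Counts of 345 -ps members against those of their parents, both plus 1 on log axes, 1 panel per library; points on the line have equal counts. Most points lie below the line in both panels, with a row of members at 0 along the lower edge.

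Members of ribosomal protein parents had a median ratio of -1.67 and -1.58 over 208 members, and those of other parents -2.21 and -2.00 over 71. The gap was small beside the spread within each class. Over all 345 members the Spearman correlation of member and parent counts was 0.490 in replicate 1 and 0.393 in replicate 2, across members that share parents, libraries and possibly fragments.

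Copies with a higher relative length had higher ratios. Relative to the longest coding sequence among the parent's rows, the 8 members under 0.5 in length had a median ratio of -4.61 and -3.20. The 37 members from 0.5 to under 0.9 had -2.81 and -2.77, the 228 from 0.9 to under 1.1 had -1.58 and -1.46, and the 6 of 1.1 and over had -0.32 and -0.46. The order was the same in both libraries, although a longer row also has more room for counts. Full length did not fix the ratio, since members from 0.9 to under 1.1 spanned -6.21 to 0.78 in replicate 1. A low relative length need not mean a truncated copy: Rps19, with a longest coding sequence of 639 nucleotides, had 14 copies of 269 to 441.

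**Figure D5:**
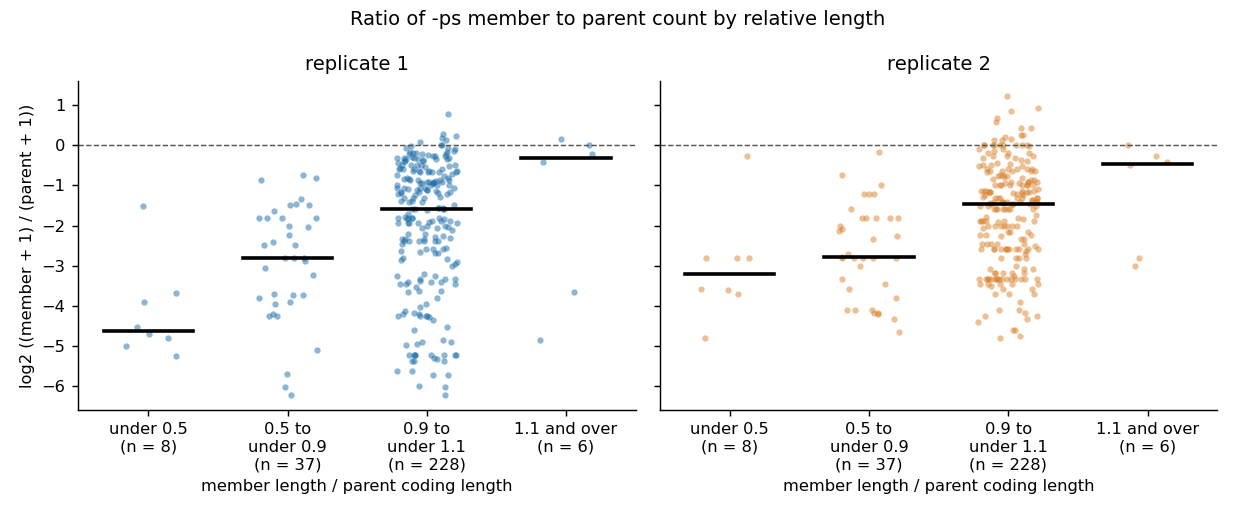
Log2 ratio of member to parent count, each plus 1, by the length of the member relative to the coding length of its parent, for 279 members, 1 panel per library; each point is 1 member, the black line the median and the dashed line equality. Medians run from -4.61 to -0.32 in replicate 1 and from -3.20 to -0.46 in replicate 2, and members of nearly full length cover most of the range.

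Where the parent had at least 100 counts over both libraries, the count of the parent had less counting error, but that of a low member did not. There the highest ratio was that of Pgam1-ps2, at -0.02 and -0.03, followed by Rpl19-ps11 at -0.22 and -0.26 and Tubb4b-ps1 at -0.49 in both libraries. Got2-ps1, a copy of the gene for mitochondrial aspartate aminotransferase, had 70 and 15 counts beside 100 and 29 for Got2, and Rpl19-ps1 was at -0.91 and -0.78. The lengths of these 5 copies ranged from 0.999 to 1.21 of the coding length of the parent.

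At the low end, 3 of the 5 copies held no more than 2 counts in either library. Ptma-ps1 had 1 count in each library, whereas Ptma, the gene for prothymosin alpha, a small acidic chromatin protein, had 129 and 36. Rplp1-ps1 had 1 and 0 beside 74 and 27 for Rplp1, the gene for an acidic protein of the ribosomal stalk, although its 345 nucleotides are the full coding length. Matr3-ps2, a copy of the gene for the nuclear matrix RNA-binding protein matrin 3, had 2 and 0 beside 94 and 27. Marcksl1-ps4 had 22 and 7 beside 291 and 96 for Marcksl1, which encodes an actin-regulating substrate of protein kinase C, and Rpl19-ps4 was at -2.91 and -4.58. Of these 5, Rplp1-ps1 and Rpl19-ps4 were as long as the coding sequence of the parent or longer, and the other 3 were 0.403 to 0.710 of it.

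With a parent below 20 counts, 2 members exceeded the parent's count sum, and both are named because of their values. Gstm2-ps1 had 19 and 7 counts beside 2 and 0 for Gstm2, a glutathione transferase gene, at the same length of 657 nucleotides as its coding sequence. Llph-ps2 had 13 and 1 counts beside 11 and 2 for Llph, so it was above the parent in replicate 1 only. By count sum no other member whose parent had fewer than 20 counts exceeded it; Zbed4-ps1, with 0 and 1 beside 4 and 0, was above it in replicate 2.

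For 62 members with -ps plus digits no gene of the parent's name was in the table. RefSeq lists the name as a former symbol of a gene for 24 of these, of which 13 had a count. For 7 of the 24, 3 of them with a count, the match is doubtful: the Mup copies, matched to Mup21, and Ck-ps1, matched to Chkb, which had 34 and 7 counts beside 5 and 1. The highest was Actg-ps1, with 163 and 58 counts over 408 nucleotides, beside 700 and 193 for Actg1, the gene for cytoplasmic gamma-actin. Glns-ps1 had 71 and 23 beside 127 and 33 for Glul, the gene for glutamine synthetase, an enzyme of astrocytes, and Smt3h2-ps4 had 30 and 8 beside 41 and 9 for Sumo2. Lower ones were Txn-ps1, with 9 and 2 beside 97 and 28 for the thioredoxin gene Txn1, and Fth-ps2, with 3 and 1 beside 73 and 26 for the ferritin heavy chain gene Fth1. The 5 copies from Actg-ps1 to Fth-ps2 named here were below the gene in both libraries, and Ck-ps1 was above its doubtful match.

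Members with the symbol of a chemosensory receptor had no count. All 24 members with -ps plus digits named after olfactory (Olfr) or vomeronasal (Vmn) receptors, genes expressed in sensory neurons of the nose, were at 0 in both libraries, while 314 of the other 383 (82.0%) had a count. For these 24 no gene of the name before -ps was in the table, so they were not compared with a parent. This list was drawn up after the table was seen.

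The RefSeq class of the members varied with detection. Of the members, 3665 had an entry under the same symbol. The 3530 classed there as pseudogenes had 11.9 and 3.31 counts per kilobase, with counts in both libraries for 44.5%. The 89 classed as transcribed pseudogenes had 22.8 and 6.09, with 58.4% in both. The 2259 without an entry had 6.39 and 1.85, with 18.8% in both. RefSeq classes 39 members as protein coding, among them Gm12657, a copy of a histone H3 gene, with 53 and 11 counts, H3f3c with 43 and 7, Rpl34-ps1 with 27 and 5, Rpl31-ps12 and Tma7-ps. Counts in both libraries were found for 16 of the 39.

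Shorter members were detected less often. Counts in both libraries were found for 21.9% of the 903 members under 300 nucleotides, for 35.0% of the 2376 from 300 to under 600, for 38.5% of the 2006 from 600 to under 1200 and for 41.0% of the 639 longer ones. Per kilobase the order ran the other way up to 1200 nucleotides, from 16.0 and 4.62 counts under 300 nucleotides to 9.22 and 2.43 from 600 to under 1200.

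The 2 libraries were compared member by member with an exact binomial test on the counts scaled by TMM, which compares these libraries and not conditions. The filter, 10 counts on average over the libraries, left 5436 genes, of which 225 passed a Benjamini-Hochberg adjusted p of 0.05, a background of 4.14%, with 3.99% higher and 0.147% lower in replicate 2. Of the members, 672 could be tested and 4 passed, which is 0.595%, below that background. In each direction 2 passed (0.298%), which is below the background for higher but above the 0.147% for lower. The share called can change with depth: with a mean of at least 50 counts, 75 of 764 genes and 1 of 61 members passed. The members were not matched to the other genes by depth. The median log2 ratio of replicate 2 over replicate 1, on log2(CPM + 1), was -0.18 over the 672 members and 0.00 over all genes tested, so the members lay slightly lower in replicate 2. Scaling by library totals in place of TMM moved both medians down, to -0.39 over the members and -0.20 over all genes. None of the 20 unnamed models with the highest counts passed; Gm14150 came nearest, at an adjusted p of 0.0707 in the exact binomial test, and passed where the isoforms of each gene were summed (adjusted p of 0.00491 in the exact binomial test).

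Both members higher in replicate 2 were long clone-named models. RP23-324P1.1, of 3841 nucleotides, had 9 counts in the first library and 16 in the second, a log2 ratio of 2.5 (counting SE 0.601, adjusted p of 0.000636 in the exact binomial test). RP23-239L21.4, of 3859 nucleotides, had 8 and 13, a log2 ratio of 2.37 (counting SE 0.648, adjusted p of 0.00535 in the exact binomial test). Lower in replicate 2 were Gm13453, with 42 and 2 counts and a log2 ratio of -2.61 (counting SE 1.04, adjusted p of 0.0459 in the exact binomial test), and Rps6-ps1. The latter, with 27 and 0 counts, was at least 2.73-fold lower against a floor of 3 counts in replicate 2 (adjusted p of 0.0285 in the exact binomial test). Rps6-ps3 and Rps6-ps4 did not pass, and Rps6-ps2 was below the filter. When a biological coefficient of variation of 0.2 was allowed for, RP23-324P1.1 alone was called.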

How the data were processed

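The authors deposited 1 table of whole-number footprint counts per transcript for both libraries, not normalised. It also gives transcript and coding lengths. The coding length of a gene is the longest over its rows, which need not be that of the row counted. Trimmomatic 0.36, Bowtie2 2.2.6, SAMtools and the build GRCm38.p4 are named in the submitters' processing notes; the treatment of fragments with several matches is not given in the sources used here. No counts of other samples were in the table. The members and lists were chosen with earlier results of these data known. Symbols are transcript names without the isoform number. Unnamed means Gm plus digits, RIKEN or clone names. Named here were the 10 families and 10 unnamed models with the highest sums, the called members, and the 5 highest and 5 lowest ratios with a parent sum of at least 100, with their parents; others are described as chosen. CPM used edgeR 4.0.16 with TMM; 1 count was worth 2.71 CPM in replicate 1 and 8.93 in replicate 2. The test of the libraries was a 2-sided exact binomial test with Benjamini-Hochberg adjustment, checked on simulated data. The simulated counts had counting error only, so the check does not cover variation between biological replicates. The table gives no coordinates.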

Additional observations from a re-analysis of the deposited data

How the results depend on the processing

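The share of counts on the members was 5.56% over both libraries; it was 11.1% with 1 row per gene and 3.48% with each distinct pair of counts among the members taken once. It moved by less than 1 SD without short non-coding rows, with transcribed processed pseudogenes added, and without either replicate (5.29% to 5.84%). Unnamed models held 86.5% of the members' counts, 79.4% as Gm symbols alone, 84.1% with distinct pairs and 87.7% as every symbol without -ps, a definition added after the table was seen. Without 1 replicate the value was 86.2% to 86.8%. The median log2 ratio to the parent of -1.77 became -1.70 with the parent's longest coding isoform, -3.45 with the sum of its isoforms, -0.82 per kilobase of transcript, -1.90 with a pseudocount of 0.5, -1.70 with no minimum, -2.12 with a parent sum of at least 100, and -1.50 per kilobase of member and parent coding length, added after the table was seen. Without 1 replicate it was -1.81 to -1.74. Its sign was negative in all of these. Members summed to more than the parent in both libraries in 31 families, in 9 with the parent's isoforms summed, an alternative added after the table was seen, and in 36 and 38 in single libraries. Counts in both libraries were found for 2064 members, and for 628 with at least 5 in each; single libraries had 2229 to 3126. The library test called 4 members. With a mean of at least 50 counts (61 members tested) it called 1, Gm4735, with 163 and 30 counts, which is none of the 4. A coefficient of variation of 0.2 left 1 of the 4. Library totals gave 6, no filter 5 and summed isoforms 6, each including the 4. No paired analysis was possible because the table holds a single group, and the library test cannot leave out a replicate. Depth limits single members: 5252 were below the filter of the test. The SD rests on 2 libraries.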
